A study of Mus musculus with 6 samples.

Results

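DNA damage repair genes were examined in mouse medulloblastomas with and without Crebbp, a histone acetyltransferase gene. The 55 genes were chosen by name from textbook repair and checkpoint pathways, and 51 of them were measured among the 22180 genes of the arrays. A gene was measured where an array feature carried its symbol alone, and the feature with the highest mean over 6 arrays was used. Fanca, Apex1 and Ddb2 lie on features annotated to more than 1 gene, and these 3 and Xrcc2 were not analysed here.

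All 6 tumours were driven by SmoM2, a Smoothened mutant that signals without ligand, carried as 1 floxed allele (Math1Cre::SmoM2Fl/+). A tamoxifen-dependent Cre under Math1 (Atoh1) control switched it on in granule neuron progenitors once 1 mg of tamoxifen had been injected at postnatal day 5. Tumour tissue was taken at postnatal day 60 from animals with clear growth. The age label gives postnatal day 5, which was read as the day of induction. In 3 tumours Crebbp was wild type, and in 3 both alleles were floxed (Math1Cre::CrebbpFl/FlSmoM2Fl/+) and lost with the same Cre, so host cells in which Math1Cre was not active keep Crebbp. Total RNA was hybridised to Affymetrix arrays after whole-transcript labelling, 1 array per tumour, and precision is limited by their number. The labels leave unstated whether each tumour is from its own animal, so p-values concern these samples. They rest on the spread between the samples, with each gene's variance drawn by limma towards a value common to all genes.

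DNA repair is divided among pathways by the kind of lesion. Atm and Atr kinases signal breaks and stalled forks through Chek2 and Chek1. Breaks are mended by homologous recombination, which copies a sister chromatid, or by end joining, which ligates the ends, while damage to a base or to 1 strand is cut out and refilled by excision pathways. Many recombination, Fanconi and mismatch repair genes are transcribed most in cycling cells, and granule neuron progenitors are a cell type in which loss of repair genes is known to promote Sonic hedgehog medulloblastoma. Crebbp and its paralogue Ep300 are known to acetylate histones and several repair proteins.

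The targeted gene, the tissue and the sex of the arrays were checked first. Crebbp values on the log2 scale were 11.80, 11.76 and 11.70 in the wild type group and 11.24, 11.34 and 11.20 in the knockout group, a log2 change of -0.50 (SE 0.09, limma adjusted p = 0.0948). The groups did not overlap. Which exons Cre removes is not stated, so the feature may also hold probes outside the deletion. All 11 measured granule progenitor and Sonic hedgehog tumour markers had medians of 8.40 or more, against 5.74 for the highest of 12 values of Xist and Y-linked genes on arrays of the opposite pattern. The 3 wild type arrays carried the male pattern of Xist (5.13 to 5.74) and the 3 knockout arrays the female pattern (12.26 to 12.45). Genotype and sex therefore cannot be told apart in any comparison given here. Every member lay above the level of absent genes on every array, with values from 6.91 to 11.95.

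No repair gene passed the threshold between knockout and wild type tumours (0 of 51, limma adjusted p under 0.05, smallest adjusted p 0.293). Over all genes 0.207% passed, 46 of 22180, with 0.0812% lower and 0.126% higher in knockout tumours. At an unadjusted p under 0.05 there were 3 members, or 5.88%, against 13.8% of all genes: Prkdc and Fancc were higher (7.24% of all genes) and Parp1 lower (6.51%) in knockout tumours. Higher means were found for 27 members and lower means for 24, and the median log2 change was 0.01, against 0.00 over all genes. With each array centred on its median the split was 21 higher and 30 lower.

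The 95% intervals, taken 1 gene at a time, describe the difference between these groups, in which genotype and sex are not separated. The targeted gene Crebbp itself, with a log2 change of -0.50, also missed the threshold (limma adjusted p = 0.0948). Host cells keep Crebbp and its feature may hold probes outside the deletion, so that change is not a scale for the members. The log2 changes of the members ran from -0.30 for Parp1 to 0.31 for Prkdc, and 30 of 51 lay within 0.1 of no change, against 44.2% of all genes. For 45 of 51 members the 95% interval lay wholly within 0.5 on the log2 scale, a 1.41-fold difference, in either direction, as it did for 70.2% of all genes. The other 6, Prkdc, Parp1, Rad51b, Brca2, Polb and Msh6, reached slightly past that bound, and the farthest bound of any member was 0.57. The standard errors of the members lay between 0.08 and 0.15, with a median of 0.11, against 0.12 over all genes. The median absolute log2 change was 0.09 for members and 0.12 for all genes.

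**Figure D1:**
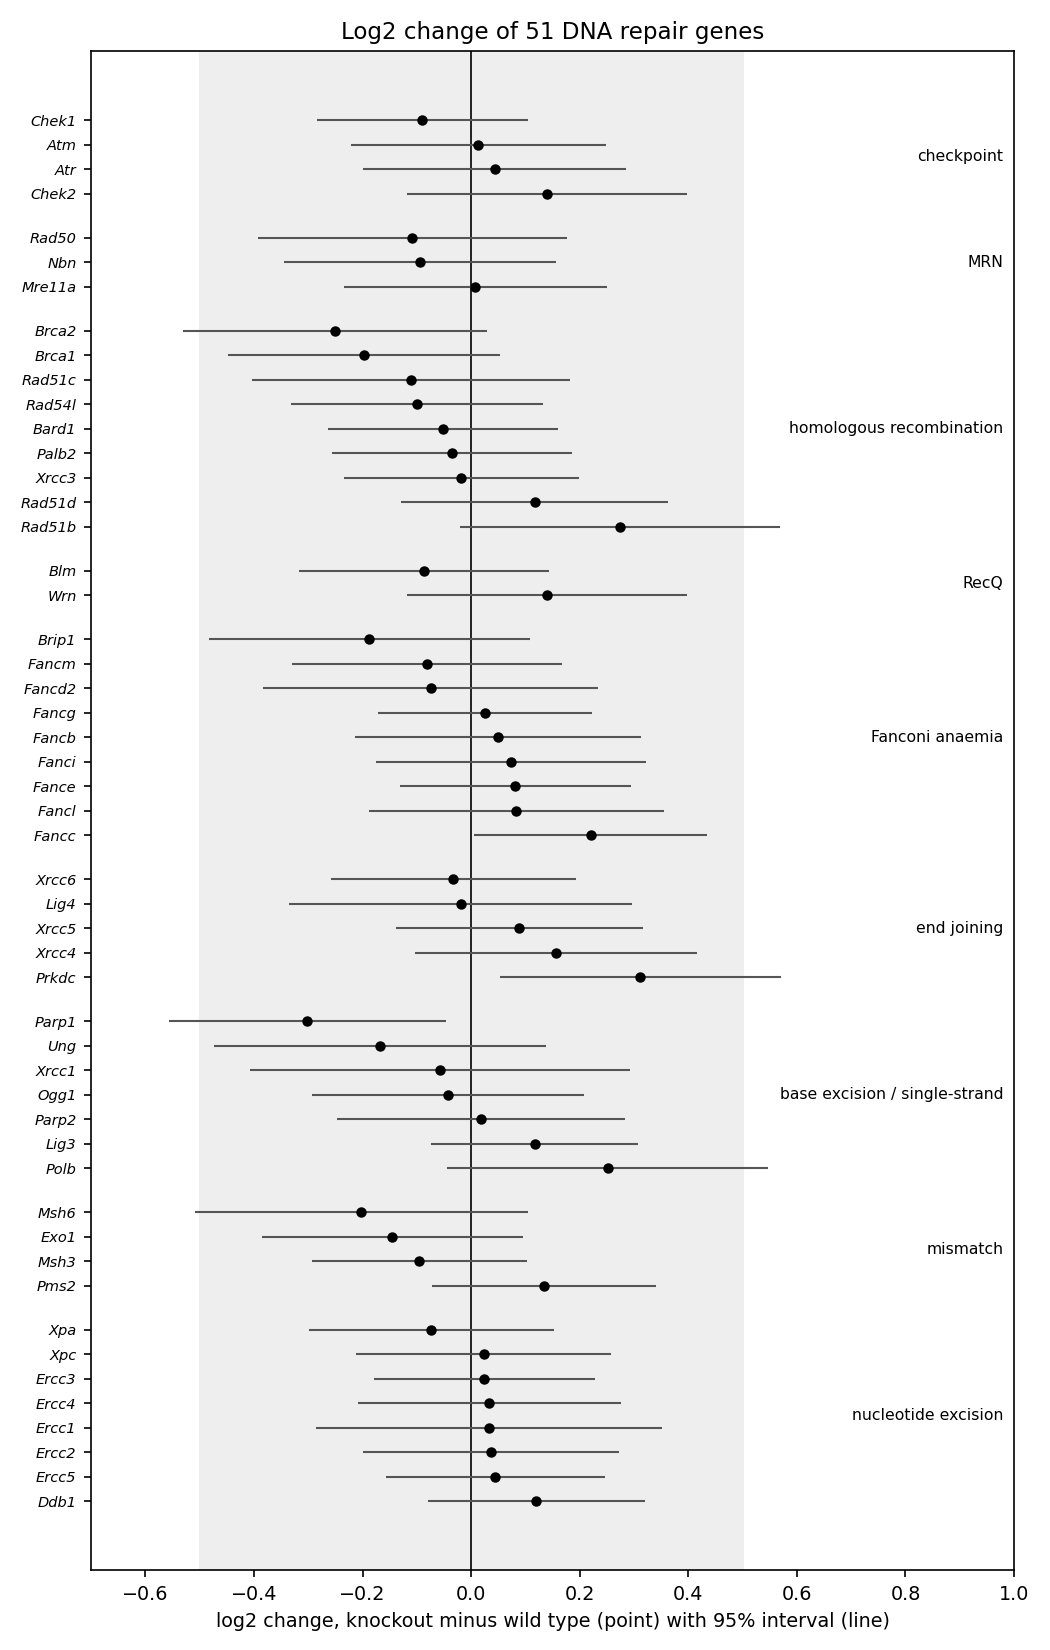
Log2 change (x axis, knockout minus wild type) of the 51 measured repair genes, grouped by pathway role, with limma's 95% interval as a line and the band from -0.5 to 0.5 shaded. Only the intervals of Prkdc, Fancc and Parp1 leave out 0, and 45 intervals lie inside the band.

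**Figure D2:**
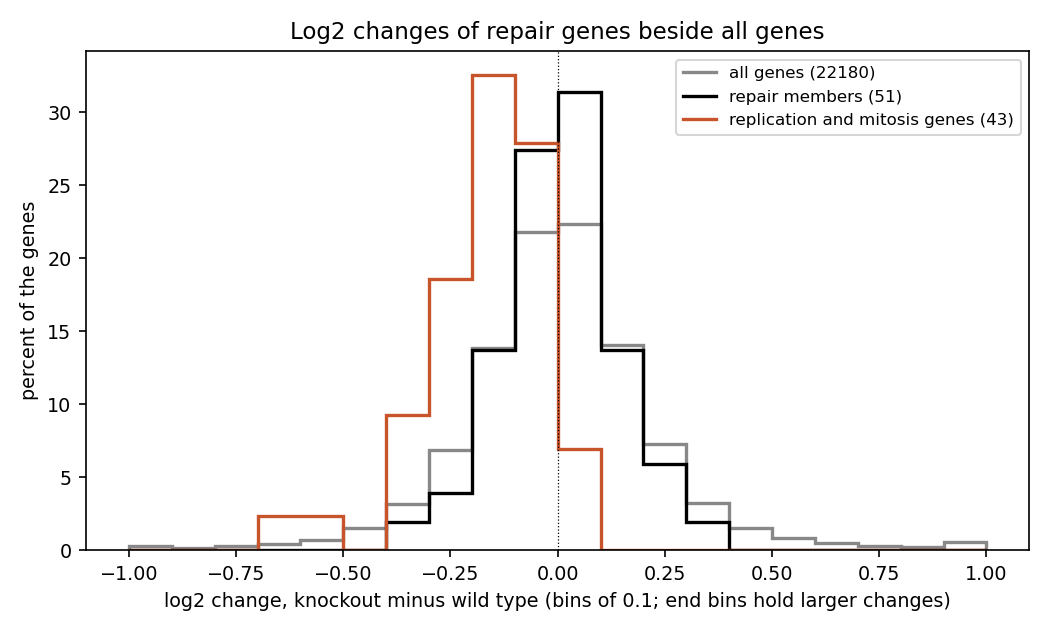
Share of genes (y axis, percent) by log2 change (x axis, bins of 0.1) for all 22180 genes, the 51 repair genes and 43 genes of DNA replication and mitosis. The repair genes lie around 0 between -0.30 and 0.31, while the replication and mitosis genes lie mostly below 0.

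The groups did not overlap in 7 of 51 members, or 13.7%, against 19.6% of all genes. Prkdc, Fancc, Pms2, Lig3 and Ddb1 were higher in every knockout tumour than in any wild type tumour (10.2% of all genes), and Parp1 and Chek1 were lower (9.43% of all genes). These shares are near or below the background, and the 7 genes belong to different roles, with only Parp1 and Lig3 sharing 1.

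The promoters of those genes are shown where RefSeq holds an entry, for the 4 with the smallest p (Prkdc, Parp1, Fancc and Pms2), so that motifs can be read beside their opposite directions. Each run gives the 250 bases before the start, from RefSeq on build GRCm38.p6: Parp1 at chr1:180568641-180568890 on the plus strand, Fancc at chr13:63431746-63431995 on the minus strand and Pms2 at chr5:143909751-143910000 on the plus strand. Capitals mark matches on either strand to the E2F-type words TTCCCGC and, as a second form, TTGGCGC, to the CRE core TGACG, or to the NF-Y-type word CCAAT.
Parp1: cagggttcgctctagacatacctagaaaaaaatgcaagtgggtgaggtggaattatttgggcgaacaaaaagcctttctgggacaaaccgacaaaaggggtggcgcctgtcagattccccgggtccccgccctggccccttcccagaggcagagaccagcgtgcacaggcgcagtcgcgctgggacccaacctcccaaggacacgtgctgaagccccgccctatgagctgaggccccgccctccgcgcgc
Fancc: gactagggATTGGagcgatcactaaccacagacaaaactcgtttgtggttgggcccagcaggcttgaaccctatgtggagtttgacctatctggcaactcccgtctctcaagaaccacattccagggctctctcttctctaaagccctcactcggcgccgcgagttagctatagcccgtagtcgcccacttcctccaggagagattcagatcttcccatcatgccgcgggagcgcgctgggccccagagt
Pms2: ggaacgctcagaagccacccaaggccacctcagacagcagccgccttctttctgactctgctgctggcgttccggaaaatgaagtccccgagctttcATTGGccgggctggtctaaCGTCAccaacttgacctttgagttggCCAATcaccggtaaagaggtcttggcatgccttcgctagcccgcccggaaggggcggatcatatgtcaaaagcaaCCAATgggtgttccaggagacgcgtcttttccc
In these windows Parp1 held no match, Fancc 1 NF-Y-type match and Pms2 3 NF-Y-type matches and 1 CRE core. A match is a description of letters and not of binding.

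Of the 51 members, 41 had a promoter entry, and the first entry per gene was used. An E2F-type word lay in 11 of 41 (26.8%), against 5.71% of 27025 promoters of all annotated genes. The 11 were Bard1, Brca2, Chek2, Ercc2, Ercc5, Fancb, Fancg, Fancm, Msh3, Xrcc4 and Xrcc6, whose log2 changes ran from -0.25 to 0.16. The CRE core lay in 34.1% of member promoters against 17.9%, and the NF-Y-type word in 53.7% against 34.5%. All promoters include those of non-coding genes, whose base composition can differ.

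The checkpoint kinases, which halt the cell cycle after damage, showed no change past the threshold (0 of 4). Atm, the kinase that responds to breaks, had values of 9.90, 10.09 and 10.16 in wild type and 10.08, 10.12 and 9.99 in knockout tumours, as log2 levels. The groups overlapped, with a log2 change of 0.01 (SE 0.10, 95% interval -0.22 to 0.25), or -0.02 with arrays centred on their medians. Atr, the kinase of stalled replication forks, had levels of 9.01, 9.11 and 9.28 against 9.28, 9.14 and 9.12, and a log2 change of 0.04 (SE 0.10), with groups that overlapped. A further, dimmer feature of Atr lay at 6.86, 7.11 and 6.83 against 6.92, 6.66 and 6.79, a log2 change of -0.14, so the direction for Atr differed between its features.

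Chek1, the effector kinase below Atr, had levels of 9.42, 9.51 and 9.54 in wild type and 9.38, 9.42 and 9.40 in knockout tumours. Its groups did not overlap, but the closest values differed by less than 0.01, and the log2 change was -0.09 (SE 0.08, limma adjusted p = 0.687). Chek2, the effector kinase below Atm, had levels of 8.56, 8.74 and 8.79 against 9.00, 8.75 and 8.76. Knockout replicate 1 alone stood above the wild type range, and the log2 change was 0.14 (SE 0.11, 95% interval -0.12 to 0.40).

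The MRN complex of Mre11a, Rad50 and Nbn tethers and trims broken ends and activates Atm. Rad50 had levels of 9.22, 9.29 and 9.28 in wild type and 9.37, 9.18 and 8.92 in knockout tumours, so the knockout values lay on both sides of the wild type ones. Its log2 change was -0.11 (SE 0.12) and that of Nbn was -0.09 (SE 0.11). Mre11a, the nuclease of the complex, had a log2 change of 0.01 (SE 0.10), or -0.02 with arrays centred on their medians. All 3 genes had their lowest value in knockout replicate 3.

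Homologous recombination was the role with the most members of lower mean, 7 of 9 against 49.1% of all genes, with a median log2 change of -0.05. Without knockout replicate 3 the median was -0.02 with 5 of 9 lower, and without wild type replicate 1 it was -0.10. None passed the threshold, and none of the 9 had groups that did not overlap. Brca2, which loads the strand-exchange recombinase onto DNA, had levels of 9.12, 9.47 and 9.33 in wild type and 9.19, 9.06 and 8.92 in knockout tumours. Wild type replicate 1 lay within the knockout range, and the log2 change was -0.25 (SE 0.12, 95% interval -0.53 to 0.03, limma adjusted p = 0.411). Brca1, which steers breaks to recombination, had levels of 9.65, 9.77 and 9.61 against 9.49, 9.63 and 9.32. Knockout replicate 2 lay above wild type replicate 3, and the log2 change was -0.20 (SE 0.11, 95% interval -0.45 to 0.05, adjusted p = 0.474), or -0.12 without knockout replicate 3.

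Rad51b, a paralogue that helps the recombinase assemble, had a higher mean in knockout tumours. Its levels were 8.40, 8.81 and 8.65 in wild type and 8.91, 9.00 and 8.76 in knockout tumours, with a log2 change of 0.27 (SE 0.13, limma adjusted p = 0.394), or 0.16 without wild type replicate 1. Only knockout replicate 3 lay within the wild type range. The other paralogues Rad51c and Rad51d had log2 changes of -0.11 and 0.12, and Xrcc3 one of -0.02. Bard1, the partner of Brca1, and Palb2, which bridges Brca1 to Brca2, had log2 changes of -0.05 and -0.04, and the translocase Rad54l one of -0.10.

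The RecQ helicases unwind recombination intermediates, and their means differed in opposite directions. Wrn had levels of 8.93, 8.79 and 9.09 in wild type and 9.08, 9.18 and 8.96 in knockout tumours, with a log2 change of 0.14 (SE 0.11). Blm had levels of 9.90, 9.92 and 10.03 against 9.93, 9.94 and 9.72, with a log2 change of -0.09 (SE 0.10). The groups of both genes overlapped.

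The Fanconi anaemia pathway repairs crosslinks between DNA strands, and of its 9 measured members 6 had higher and 3 lower means in knockout tumours, with Fancg turning lower under quantile normalization or median centring, and 5 of 9 lower without wild type replicate 3 or without knockout replicate 2. Fancc, a subunit of the core ubiquitin ligase complex, had levels of 7.92, 7.83 and 7.90 in wild type and 8.15, 8.17 and 7.98 in knockout tumours. The groups did not overlap, and the log2 change was 0.22 (SE 0.09, unadjusted p = 0.0456 and adjusted p = 0.349 by limma). Fancd2, the protein that the core complex marks with ubiquitin, had levels of 9.38, 9.21 and 9.49 against 9.25, 9.52 and 9.10. Its highest and lowest values both came from knockout tumours, and the log2 change was -0.07 (SE 0.13).

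Brip1, a helicase that binds Brca1, had levels of 8.85, 8.99 and 9.11 in wild type and 8.82, 8.98 and 8.59 in knockout tumours, with a log2 change of -0.19 (SE 0.13), or -0.08 without knockout replicate 3. Fancb, another core subunit, is the only X-linked gene among the 51. Its levels were 7.11, 7.24 and 6.91 in the male wild type arrays and 7.11, 7.26 and 7.04 in the female knockout arrays, with a log2 change of 0.05 (SE 0.11). The core subunits Fance, Fancg and Fancl, the Fancd2 partner Fanci and the translocase Fancm had log2 changes between -0.08 and 0.08.

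End joining includes Prkdc, whose log2 change was close in size to that of Parp1 and of opposite sign. With arrays centred on their medians the values were 0.28 for Prkdc and -0.33 for Parp1. The gene encodes the catalytic subunit of the DNA-dependent protein kinase, which the Ku proteins recruit to broken ends. Its levels were 8.57, 8.50 and 8.83 in wild type and 9.03, 8.91 and 8.89 in knockout tumours. All knockout values lay above all wild type values, though wild type replicate 3 came within 0.1 of the nearest. The log2 change was 0.31 (SE 0.11, 95% interval 0.05 to 0.57), 1.24-fold, with an unadjusted p = 0.0244 and an adjusted p = 0.293 by limma. Without wild type replicate 3 the change was 0.41 and the adjusted p 0.125, the smallest of any member under any alternative.

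In the RefSeq gene order Prkdc directly neighbours Mcm4, a subunit of the replicative helicase, on chromosome 16. Mcm4 had levels of 10.70, 10.94 and 10.78 in wild type and 10.61, 10.64 and 10.56 in knockout tumours, a log2 change of -0.20 (SE 0.10) that missed the threshold by limma (adjusted p = 0.402). The mean differences of these neighbours thus had opposite signs, and neither passed the threshold. Xrcc4, the scaffold of the ligation step, had levels of 8.02, 8.35 and 8.29 in wild type and 8.47, 8.33 and 8.33 in knockout tumours, with a log2 change of 0.16 (SE 0.11) and overlapping groups. The Ku genes Xrcc5 and Xrcc6 had log2 changes of 0.09 and -0.03, and the end joining ligase Lig4 one of -0.02.

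Base excision and single-strand break repair held the lowest log2 change of the members, that of Parp1, which binds nicks and marks them with poly(ADP-ribose). Parp1 had levels of 10.91, 11.17 and 10.85 in wild type and 10.72, 10.71 and 10.59 in knockout tumours. The groups did not overlap, and the log2 change was -0.30 (SE 0.11, 95% interval -0.56 to -0.05), 1.23-fold. The unadjusted p was 0.026 and the adjusted p 0.296 by limma. Parp2, its paralogue, had levels of 10.24, 10.41 and 10.01 against 10.24, 10.25 and 10.22, with a log2 change of 0.02 (SE 0.11), or -0.01 with arrays centred on their medians.

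Polb, the polymerase that fills the gap left by base excision, had levels of 9.21, 8.93 and 9.34 in wild type and 9.34, 9.54 and 9.35 in knockout tumours. Its log2 change was 0.25 (SE 0.13, 95% interval -0.04 to 0.55), or 0.14 without wild type replicate 2, and the lowest knockout value lay level with the highest wild type value. Lig3, the ligase of this pathway, had levels of 9.91, 9.89 and 9.89 against 9.98, 10.07 and 10.00. Its groups did not overlap, with a log2 change of 0.12 (SE 0.08). The scaffold Xrcc1, and the glycosylases Ung and Ogg1 that remove uracil and oxidised guanine, had log2 changes of -0.06, -0.17 and -0.04.

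Mismatch repair corrects replication errors, and 3 of its 4 members had lower means. Msh6, a subunit of the heterodimer that finds base mismatches, had levels of 9.12, 9.55 and 9.21 in wild type and 8.99, 9.22 and 9.06 in knockout tumours. The groups overlapped, and the log2 change was -0.20 (SE 0.13, limma adjusted p = 0.555), or -0.07 without wild type replicate 2. The nuclease Exo1 had levels of 9.94, 10.14 and 10.01 against 9.91, 9.99 and 9.75, with a log2 change of -0.15 (SE 0.10), and Msh3 had one of -0.10. Pms2, a subunit of the endonuclease that follows recognition, had levels of 7.42, 7.46 and 7.32 against 7.49, 7.51 and 7.61. Its groups did not overlap, and the log2 change was 0.13 (SE 0.09, adjusted p = 0.559).

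Nucleotide excision repair, which removes bulky and ultraviolet lesions, had 7 of 8 members with higher means and a median log2 change of 0.03. Xpc and Ercc3 turned lower with arrays centred on their medians, and Xpc with quantile normalization, by less than 0.01. Without knockout replicate 2 the split was 4 lower of 8. Ddb1, an adaptor of a ubiquitin ligase, had levels of 11.76, 11.77 and 11.75 in wild type and 11.95, 11.90 and 11.80 in knockout tumours. Its groups did not overlap, with a log2 change of 0.12 (SE 0.09, limma adjusted p = 0.587). Xpa, the damage verification factor, was the member with a lower mean, at 8.84, 8.84 and 8.61 against 8.65, 8.71 and 8.71, a log2 change of -0.07 (SE 0.10). The damage sensor Xpc, the helicases Ercc2 and Ercc3 and the nuclease subunits Ercc1, Ercc4 and Ercc5 had log2 changes of 0.02 to 0.04.

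**Figure D3:**
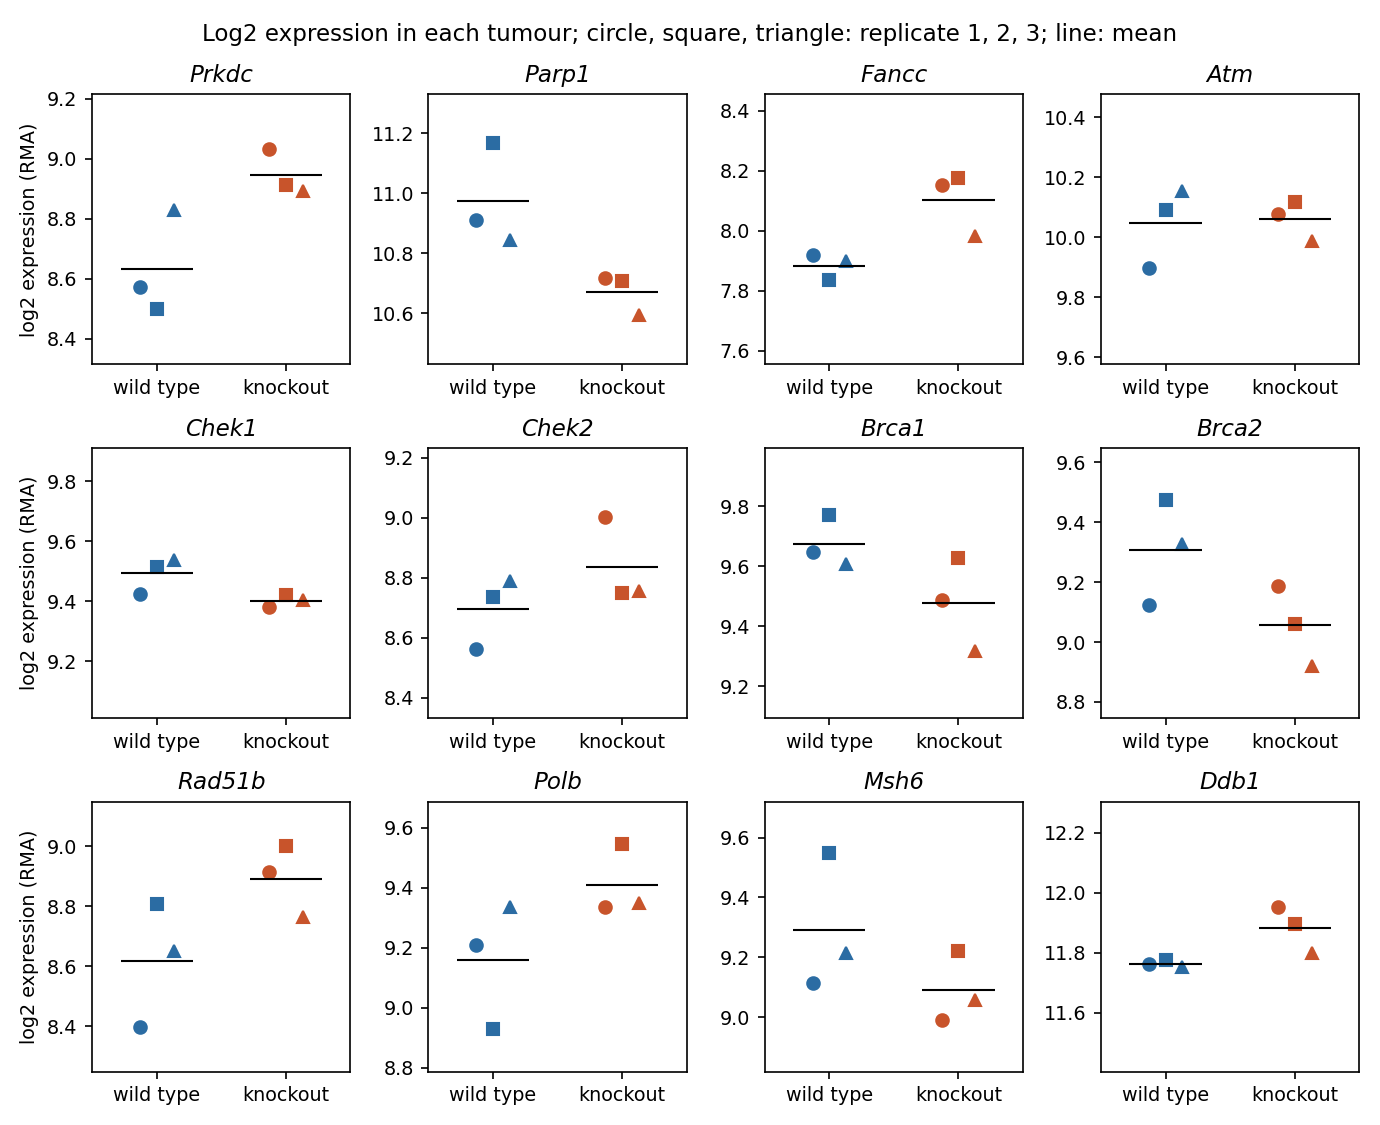
Log2 expression (y axis, RMA values) of 12 repair genes in each of the 3 wild type (blue) and 3 knockout (red-brown) tumours, with replicates marked by shape and group means as lines. Each panel spans the same range of log2 units around its own gene. Prkdc, Fancc and Ddb1 are higher and Parp1 and Chek1 lower in all knockout tumours, while the groups of the other genes overlap.

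Single tumours differed more than the groups did. For each array the median deviation of the 51 genes from their own means over 6 arrays was taken. It was -0.05, 0.06 and 0.01 in wild type and 0.02, 0.05 and -0.08 in knockout tumours, so the groups overlapped. Knockout replicate 3 was the lowest of the 6 arrays in 23 of 51 members, against 19.7% of all genes, and the highest in 1. Of those 23, 7 were recombination genes (Bard1, Brca1, Brca2, Palb2, Rad51c, Rad54l and Xrcc3), 4 took part in base excision and single-strand break repair, and 3 formed the MRN complex. Without knockout replicate 3 the members with lower means went from 24 to 16, and those of homologous recombination from 7 to 5.

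**Figure D4:**
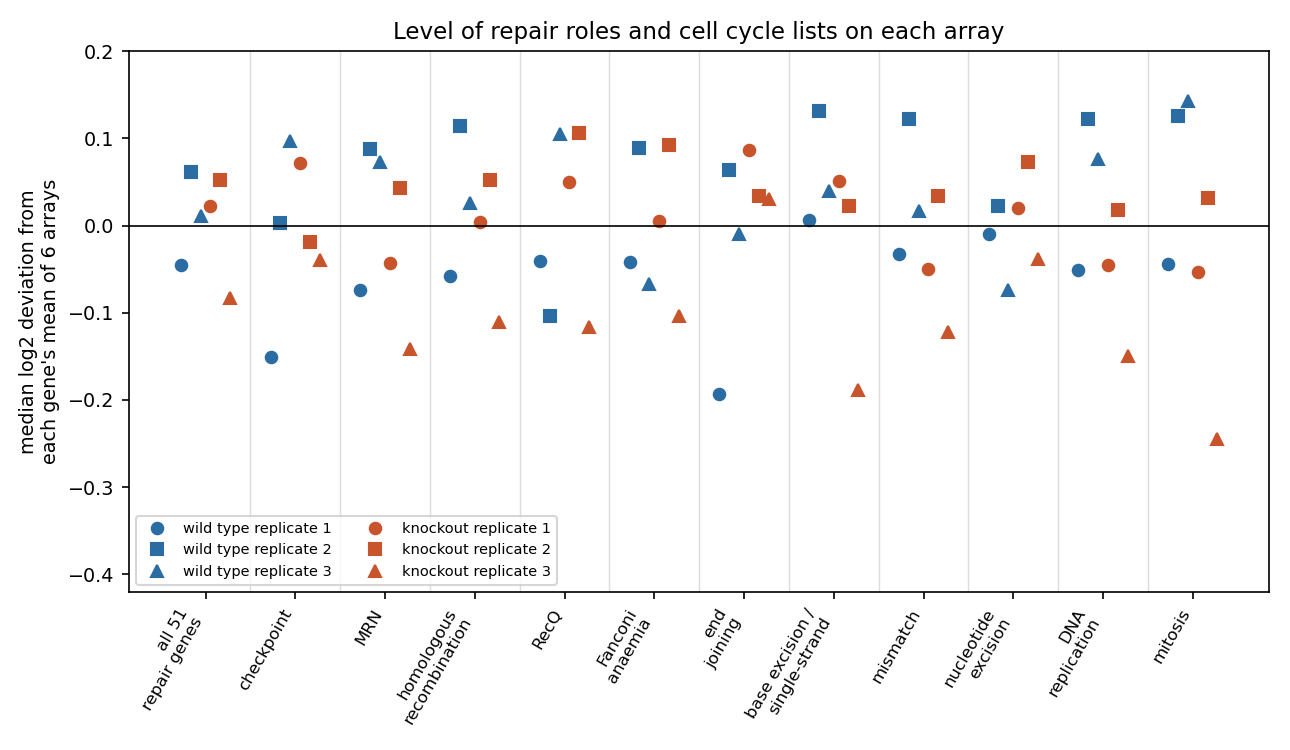
Median log2 deviation of the genes of each repair role, and of the DNA replication and mitosis lists, from each gene's mean of 6 arrays (y axis), for each tumour by shape and colour. Knockout replicate 3 lies lowest for recombination, MRN, RecQ, Fanconi, base excision, mismatch repair, replication and mitosis, and the groups overlap in every list shown.

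Genes of the cell cycle were set beside the repair genes. Of 24 DNA replication genes 21 had lower means in knockout tumours, with a median log2 change of -0.10, and of 19 mitosis genes all 19 did, with a median of -0.18. None of the 43 passed the threshold by limma. An unadjusted p under 0.05 was found for 7, all lower (6.51% of all genes): 3 of 24 replication and 4 of 19 mitosis genes. Lower in every knockout tumour were 7 of 24 replication and 4 of 19 mitosis genes (9.43% of all genes), and 0 of either list were higher in every one (10.2%). The replication licensing factor Cdt1 had the lowest log2 change of the replication list, with levels of 9.50, 9.97 and 9.36 in wild type and 9.15, 9.09 and 8.72 in knockout tumours (log2 change -0.62, SE 0.18). The next of that list by p was Gins2, a subunit of the replicative helicase complex, at -0.35 (SE 0.11). In the mitosis list Foxm1 and Mki67 had the smallest p, with log2 changes of -0.54 (SE 0.16) and -0.35 (SE 0.10). The median deviations of the replication list on the arrays were -0.05, 0.12 and 0.08 in wild type and -0.04, 0.02 and -0.15 in knockout tumours, with knockout replicate 3 lowest, as for the repair genes. Without it the median was -0.09 for mitosis, with 16 of 19 genes lower, and -0.05 for replication, with 15 of 24 lower. Without wild type replicate 1 the medians were -0.25 for mitosis, with 19 of 19 lower, and -0.15 for replication, with 23 of 24 lower. Without wild type replicate 3 the mitosis median was -0.12, also with 16 of 19 lower.

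Further genes of the repair pathways, listed apart from the members, gave the same counts past the threshold. Of 59 such genes 0 passed by limma, and 7, or 11.9%, had an unadjusted p under 0.05 against 13.8% of all genes. Of these 5 were higher (7.24% of all genes) and 2 lower (6.51%). Among checkpoint and damage signalling partners, Uimc1, which brings Brca1 to ubiquitin at breaks, had levels of 8.34, 8.39 and 8.52 in wild type and 8.82, 8.83 and 8.77 in knockout tumours (log2 change 0.39, SE 0.09, adjusted p = 0.153). Rad9a, a subunit of the checkpoint clamp, had levels of 8.99, 9.04 and 8.66 against 9.34, 9.58 and 9.33 (log2 change 0.52, SE 0.13, adjusted p = 0.183). Both had higher values in every knockout tumour, as had Hus1, another clamp subunit, at 0.33 (SE 0.09). That held for 10.2% of all genes. Rad1, a further clamp subunit, had a log2 change of 0.01 (SE 0.10). Timeless and Tipin were lower in every knockout tumour (9.43% of all genes), at -0.33 (SE 0.15) and -0.18 (SE 0.10). Of these 17 partners 9 had higher and 8 lower means, with a median log2 change of 0.01.

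Among 15 recombination and crosslink repair partners 10 had lower means, with a median log2 change of -0.15. With 1 tumour left out that median ran from -0.21 without wild type replicate 1 to -0.06 without knockout replicate 3. The Fanconi core subunit Fancf had levels of 9.82, 9.94 and 9.98 in wild type and 9.46, 9.74 and 9.65 in knockout tumours (log2 change -0.30, SE 0.10, limma adjusted p = 0.288), and the nuclease gene Dclre1b had a log2 change of -0.27 (SE 0.10). Among 19 excision, mismatch and end joining partners the median was 0.03. Gtf2h3, a subunit of the repair and transcription factor TFIIH, had levels of 9.10, 9.16 and 8.93 against 9.47, 9.61 and 9.46 (log2 change 0.45, SE 0.10, adjusted p = 0.149). Nhej1, an end joining factor, was at 0.27 (SE 0.09). The 8 genes of translesion synthesis had a median of -0.09, with Rev1 at -0.15 (SE 0.08) and Polh at -0.26 (SE 0.17). With 1 tumour left out the median ran from -0.12 without wild type replicate 3 to -0.02 without knockout replicate 3.

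Bulk tumour RNA cannot tell fewer cells of a type apart from less RNA per cell. Markers of other cells differed between the arrays beside these values. Of the 11 granule progenitor and tumour markers 8 had lower means in knockout tumours. The other 3, Ptch1, Gli1 and Pax6, had higher means, with log2 changes of 0.33, 0.30 and 0.31. Ptch1 and Gli1 were higher in every knockout tumour (10.2% of all genes), and 6 markers were lower in every one (9.43%). Median deviations of the 11 were 0.01 to 0.22 in wild type and -0.25 to -0.02 in knockout tumours, and these groups did not overlap. All 10 microglia and macrophage markers had lower means in knockout tumours, with median deviations of 0.02 to 0.27 in wild type and -0.29 to -0.06 in knockout tumours. All 6 Purkinje cell and inhibitory neuron markers had higher means, with median deviations of -0.67 to -0.11 against -0.11 to 0.80, and 5 of 6 mature granule neuron markers did, with -0.52 to -0.16 against -0.29 to 0.71. Astrocyte and Bergmann glia markers had higher means in 7 of 8 and oligodendrocyte markers lower means in 5 of 6, with overlapping groups. No marker of any list passed the threshold by limma. Endothelium markers had higher means in 4 of 6 and lymphocyte markers lower means in 4 of 6, with overlapping groups. The median over the arrays lay above the level of absent genes for every marker except the lymphocyte markers Cd3g and Ms4a1. Those 2 lay below it on all 6 arrays. The mature granule neuron marker Gabra6 lay below it in wild type replicate 1, at 5.33, and the lymphocyte marker Cd8a in knockout replicate 2, at 5.45. The part of these markers in the values of the repair genes was not tested.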

How the data were processed

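Expression was measured in 6 tumours with 1 Affymetrix whole-transcript array each. The authors deposited log2 expression values, and the submitters' processing notes name RMA and oligo. Their versions and the genome build are not stated here. RMA gives arrays a common distribution, which would hide a shift of most genes. Array medians ran from 6.91 to 7.00, and read depth does not apply.

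Platform annotation gave 23521 of 41345 features 1 symbol, 1814 several, and 16010 were unnamed here. The feature with the highest mean per gene was used. A 2-group model was fitted to all genes with lmFit and eBayes of limma 3.58.1 (R 4.3.3), two-sided and with no filter. Benjamini-Hochberg adjustment was over 22180 genes, with a threshold of 0.05. The fit was also run on simulated data with planted changes larger than that of any member. That run cannot show whether changes of the members' size would be found. Changes are knockout minus wild type. Groups came from the titles. The members, roles and lists were chosen with earlier results of these data known, so no test was made over a list.

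Named were members past the threshold or with the 12 smallest p, the 2 smallest p per role and per list, and fixed genes such as Atm and Fancb. Others are named to account for every member. Hus1, Rad1, Timeless, Tipin, Mcm4 and the single cell type markers were named after their values were seen. Ddb2, also fixed, was not analysed here. Alternatives, some added after the data were seen, covered array scaling, dim genes, the variance model, array weights, features per gene, a replicate block, the threshold, X and Y genes and each tumour left out.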

Additional observations from a re-analysis of the deposited data

How the results depend on the processing

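No member passed the threshold under any alternative run, and the smallest adjusted p was 0.125 for Prkdc without wild type replicate 3. The adjusted p over the alternatives ran from 0.125 to 0.575 for Prkdc, 0.178 to 0.576 for Parp1 and 0.202 to 0.618 for Fancc, which kept their signs. Members with an unadjusted p under 0.05 numbered 5 with array weights (9.8%, against 15.8% of all genes) and 1 to 3 when a tumour was left out (1.96% to 5.88%, against 9.8% to 16.7% of all genes), with 1 without wild type replicate 2 and 1 without knockout replicate 1. Those with groups that do not overlap numbered 10 to 16 when a tumour was left out (19.6% to 31.4%, against 26.9% to 35.7% of all genes). All genes past the threshold numbered 46, and 137 with trend and robust variance, 12 with a replicate block, 131 at a threshold of 0.1, and from 4 to 128 when a tumour was left out: 12, 18 and 99 without wild type replicates 1, 2 and 3, and 15, 128 and 4 without knockout replicates 1, 2 and 3.

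Deviations of same-numbered tumours from their group means correlated across genes at -0.03, 0.05 and 0.10. Those of differently numbered tumours correlated at -0.14 to 0.11. Deviations from means of so few tumours are constrained, so these values cannot show whether the numbers pair the tumours. With the replicate block 2 members (3.92%, against 13.9% of all genes) had an unadjusted p under 0.05 and 0 passed.

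Among members that kept their sign, leaving out 1 tumour also moved Chek2 to 0.06 without knockout replicate 1, Xrcc4 to 0.06 without wild type replicate 1, Wrn to 0.07 without wild type replicate 2, Exo1 to -0.08, Ung to -0.03 and Rad51c to -0.02 without knockout replicate 3, Nbn to -0.03 and Rad54l to -0.04 without wild type replicate 2, and Rad51d to 0.04 without wild type replicate 3. Smaller still in size were Ercc5 at 0.0037 without knockout replicate 2, Fancm at -0.010 without wild type replicate 2 and Bard1 at -0.013 without wild type replicate 3. So were Xrcc5 at 0.014 without wild type replicate 1 and Blm at -0.016 without knockout replicate 3. The sign of the log2 change was kept by 31 members under every alternative and changed for 20 under at least 1, and none of those 20 had a change larger than 0.11. It changed with arrays centred on their medians for Atm -0.016, Ercc3 -0.0043, Fancg -0.0030, Mre11a -0.021, Parp2 -0.011, Xpc -0.0053. It changed with quantile normalization for Fancg -0.0096, Xpc -0.0053, with array weights for Parp2 -0.015, Xrcc1 0.0093, and for Atr at -0.049 with the mean of its features and -0.14 with the most variable one. The cause was not tested. Leaving out 1 tumour gave these lowest and highest log2 changes for the members that changed sign: Atm -0.063 to 0.067, Atr -0.018 to 0.12, Ercc1 -0.099 to 0.17, Ercc2 -0.019 to 0.12, Ercc3 -0.015 to 0.056, Ercc4 -0.040 to 0.11, Fancb -0.037 to 0.12, Fancd2 -0.19 to 0.020, Fancg -0.0050 to 0.052, Fancl -0.00013 to 0.16, Lig4 -0.17 to 0.058, Mre11a -0.074 to 0.053, Ogg1 -0.13 to 0.041, Palb2 -0.096 to 0.011, Parp2 -0.085 to 0.11, Rad50 -0.21 to 0.0080, Xpc -0.035 to 0.099, Xrcc1 -0.16 to 0.082, Xrcc3 -0.050 to 0.035, Xrcc6 -0.083 to 0.022. The lowest member value, 6.91, lay above 5.74, the highest of 12 values of absent sex-linked genes. Whether background limits the changes of dim members was not tested.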
